A study of Rattus norvegicus with 12 samples.

Results

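Cytochrome c oxidase is the last enzyme of the mitochondrial respiratory chain, and several of its nuclear subunits exist as a ubiquitous form and a second form typical of other tissues. The genes described are Cox6a2 with its ubiquitous partner Cox6a1, Cox7a1 with Cox7a2, Cox8b with Cox8a, and Cox4i2 with Cox4i1. Members were all probes whose RefSeq accession mapped to 1 of these 8 genes, and 7 of them had a probe, of 15284 named genes on the array. Together they had 13 probes, and all 7 genes passed the filter on dim signals. Cox7a1 was not analysed here, since no probe mapped to it. The family was chosen by the processed signal of Cox6a2, which was far higher in bromodichloromethane-treated kidneys than in controls. The Cox6a2 levels in treated and control animals are therefore given as a description, with no test.

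The study measured total RNA from the outer kidney (renal cortex) of 12 Sprague-Dawley rats (Crl:CD(SD)), all male and bought at 5 weeks of age, on one-colour Agilent arrays, 1 animal on each array. Bromodichloromethane (BDCM), a chlorination by-product of drinking water, was given at 200 mg/kg per day for 4 weeks, and controls were given corn oil for 4 weeks. Kidneys were removed 24 h after dosing ended. One experiment used CO2-O2 (4:1) as the anaesthetic and another used isoflurane. The 4 groups were thus BDCM under CO2-O2, corn oil under CO2-O2, BDCM under isoflurane and corn oil under isoflurane, with 3 animals in each. The labels call the 3 animals of a group biological replicates, and the route of dosing is not given in the sources used here. The share of probes well above background lay between 67.4% and 72.5% over the arrays, and the number of arrays limits the precision. All 8 proximal tubule markers fixed for the check of the tissue, among them Lrp2 and Slc34a1, were well above background on every array.

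The catalytic core of cytochrome c oxidase is encoded by mitochondrial DNA, and the nuclear subunits around it tune its stability and activity. In mammals the heart or muscle forms of subunits 6a, 7a and 8 (Cox6a2, Cox7a1 and, in rodents, Cox8b) are typical of striated muscle, and of brown fat for some of them. Kidney is known for the ubiquitous forms, called liver forms in older work. Subunit 4 has a ubiquitous form, Cox4i1, and a form best known from lung and from the response to low oxygen, Cox4i2.

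The sequences before the annotated starts of Cox6a2 and Cox8b are shown because these were the members with the widest differences between treated and control animals. Both are the 250 bases before the RefSeq start, on assembly GRCr8, read 5′ to 3′ on the gene's own strand. Cox6a2 lies at chr1:192218970-192221188 and its window at chr1:192219717-192219966, minus strand, inside the annotated span of the gene, which runs further upstream. Cox8b lies at chr1:205406813-205408273 and its window at chr1:205408274-205408523, minus strand. Capitals mark matches, on either strand, to the C/EBP-ATF response element TGATGNAA, to the MEF2 site (CTA and TAG with any 4 bases between them) and to ACGTG, the core of the hypoxia response element.
Cox6a2: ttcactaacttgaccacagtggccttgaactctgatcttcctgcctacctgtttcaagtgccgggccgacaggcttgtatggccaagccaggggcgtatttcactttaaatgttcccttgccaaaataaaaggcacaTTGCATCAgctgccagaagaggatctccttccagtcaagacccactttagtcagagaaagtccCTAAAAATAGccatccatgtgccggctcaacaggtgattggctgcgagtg
Cox8b: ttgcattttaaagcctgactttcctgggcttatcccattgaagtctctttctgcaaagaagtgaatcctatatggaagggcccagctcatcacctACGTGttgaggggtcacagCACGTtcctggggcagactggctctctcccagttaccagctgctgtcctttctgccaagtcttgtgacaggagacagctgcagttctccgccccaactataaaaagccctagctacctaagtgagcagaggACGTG
The Cox6a2 window held 1 match to the C/EBP-ATF response element, 113 bases before the start, and 1 match to the MEF2 site, 50 bases before it. Of 33469 rat promoter windows of this length, 3.40% held the first motif and 3.41% the second. It held no ACGTG and no match to the antioxidant response element TGACNNNGC, which 10.1% of all windows held. The Cox8b window held 3 matches to ACGTG, a motif present in 16.6% of all windows, and none to the other 3. ACGTG was not particular to Cox8b among the members, since the windows of Cox8a and Cox4i1 held 1 match each. Those of Cox7a1 and Cox7a2 held none. E-boxes (CANNTG) are not in capitals. The Cox6a2 window had 4 of them, 1 of which shares 2 bases with the C/EBP-ATF match, and the Cox8b window had 2, while 65.5% of all windows had at least 1. These matches are letters in a window, not measured binding.

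Cox6a2, the muscle form of subunit 6a, was high in all 6 BDCM kidneys and low in all 6 corn oil kidneys. Levels are given as log2 of the processed signal over the 75th percentile of the same array, so 1 unit is a doubling and only the same probe is compared between animals. With the brightest of its 3 probes, A_64_P003764, animals 1, 2 and 3 of the BDCM group under CO2-O2 had levels of 1.64, 3.70 and 3.78, against -3.78, -3.59 and -3.31 in the oil group of that experiment. Under isoflurane the BDCM animals had 1.86, 4.31 and 3.32, against -3.71, -3.79 and -3.81 in the oil animals. BDCM and oil did not overlap in either experiment, and the probe was well above background on every array, controls included.

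The group means of Cox6a2 were 3.04 ± 1.22 in BDCM kidneys and -3.56 ± 0.24 in oil kidneys under CO2-O2 (SD, n = 3 each). Under isoflurane they were 3.16 ± 1.24 with BDCM and -3.77 ± 0.05 with oil. The difference was 6.60 on the log2 scale under CO2-O2, which is 97.1-fold. Under isoflurane it was 6.93, or 122-fold. With this probe the mean difference of 6.77 ranked 2 from the highest of the 12208 named genes tested, each gene read from its brightest probe. With the probes of each gene averaged it was 4.08 and ranked 17 of 12228. The choice of probe rests on the BDCM animals, since in the oil animals alone A_42_P819964 had the higher signal.

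In order of level, the BDCM group under isoflurane came first and the BDCM group under CO2-O2 next, and then the oil groups under CO2-O2 and under isoflurane. Only the step between the BDCM and oil groups exceeded the spread between animals. The 2 BDCM groups differed by 0.12 (isoflurane minus CO2-O2; limma adjusted p = 0.917), and the 2 oil groups by -0.21 (adjusted p = 0.873). Animals treated alike were not alike in Cox6a2. In each experiment animal 1 of the BDCM group was the lowest, and the BDCM groups were more spread out than the oil groups.

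All 3 Cox6a2 probes were higher in every BDCM animal than in any oil animal of the same experiment, but by different amounts. For A_44_P376112 the BDCM animals had -2.15, -0.55 and -0.45, against -4.38, -4.41 and -3.87 with oil, under CO2-O2. Under isoflurane that probe read -1.96, 0.36 and -0.82 with BDCM, against -4.41, -4.56 and -4.09 with oil. Animal 1 was again the lowest BDCM animal in both experiments.

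For A_42_P819964 the levels were -0.39, 1.00 and 1.17 with BDCM, against -1.53, -1.56 and -1.36 with oil, under CO2-O2. Under isoflurane they were -0.11, 1.89 and 0.94 with BDCM, against -1.29, -1.07 and -1.38 with oil. The mean difference between BDCM and oil over both experiments was 6.77 for A_64_P003764, 3.36 for A_44_P376112 and 2.11 for A_42_P819964, so the size of the Cox6a2 difference depended on the probe. With the 3 probes averaged it was 4.08, or 3.95 under CO2-O2 and 4.21 under isoflurane. The probe sequences were not used here, and why the probes differ was not tested.

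**Figure D1:**
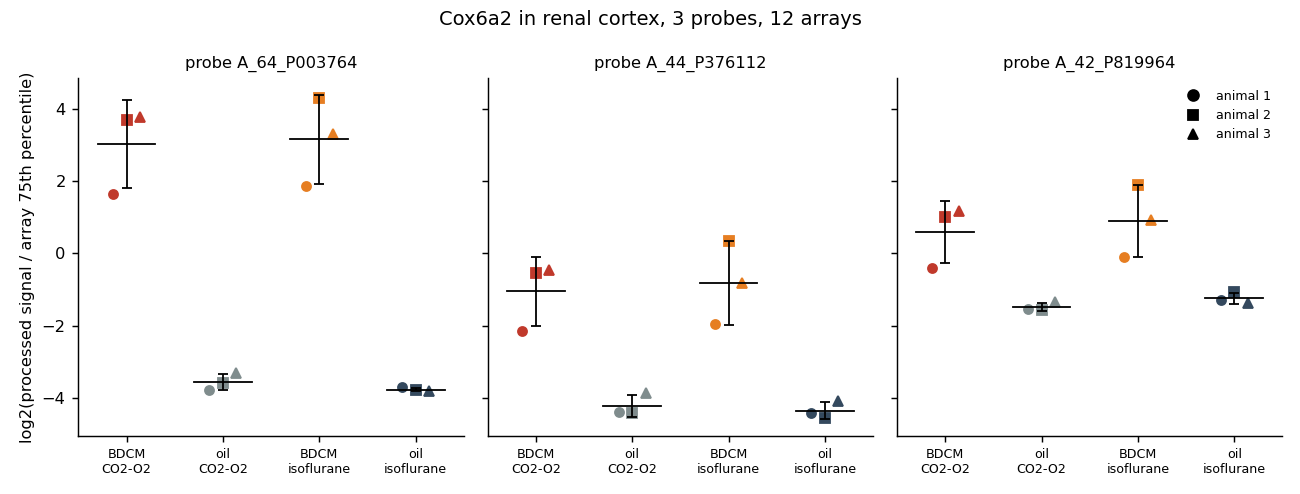
Levels of Cox6a2 for each of its 3 probes on the 12 arrays (vertical axis, log2 of processed signal over the array's 75th percentile; horizontal axis, the 4 groups; points, animals; bars, group mean and SD). In every panel the BDCM animals lie above the oil animals, with mean differences of 6.77, 3.36 and 2.11, and animal 1 is the lowest BDCM animal in both experiments.

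The arrays were scanned on 5 slides, and no slide held animals of both experiments. Slides 2 and 5 held BDCM animals only and slide 3 oil animals only. With the slide as a fixed block, treated and control animals are thus compared within slides 1 and 4 alone, on fewer arrays. The difference in Cox6a2 was also present inside single slides. On slide 1 the 1 BDCM animal read 3.70 and the 3 oil animals averaged -3.56, a difference of 7.26. On slide 4 the 2 BDCM animals averaged 3.09 and the 1 oil animal read -3.81, a difference of 6.89.

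Cox6a1, the ubiquitous partner of Cox6a2, stayed within a narrow range. Under CO2-O2 it had 8.47, 8.45 and 8.40 in BDCM kidneys, against 8.46, 8.49 and 8.49 in oil kidneys. Under isoflurane it had 8.35, 8.42 and 8.45 with BDCM, against 8.46, 8.55 and 8.48 with oil. The BDCM animals were below the oil animals under isoflurane, by little, and overlapped with them under CO2-O2. The mean difference was -0.07 (95% interval -0.16 to 0.03; limma adjusted p = 0.276). Under isoflurane alone it was -0.09 (95% interval -0.23 to 0.05; adjusted p = 0.319). The change of Cox6a2 exceeded that of Cox6a1 by 6.64 under CO2-O2 and by 7.02 under isoflurane, given without a test because Cox6a2 was chosen for its change.

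Of the 6 other members with a probe, Cox8b and Cox7a2 fell with BDCM, and none rose, in limma's moderated test of the mean of both experiments (Benjamini-Hochberg adjusted p below 0.05). That is 2 of 6, where 38.1% of the 34218 features tested passed the same test, 17.7% higher and 20.4% lower. The number of members called is therefore close to the background. With quantile normalization between arrays 5 of the 6 were called, all lower (adjusted p of Cox6a1, the one not called, 0.759). With that scaling 13212 of the 34218 features were called, 6993 of them lower. The count, and how it stands to the background, thus depends on the scaling. Within single experiments Cox8b was the only one of the 6 called, under CO2-O2, where 19.9% of features were called, and under isoflurane, where 26.1% were.

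Cox8b, the heart and muscle form of subunit 8 in rodents, fell with BDCM in both experiments, so the 2 muscle forms measured here went in opposite directions. With its brighter probe, A_44_P414273, the BDCM animals under CO2-O2 had -1.84, -2.36 and -3.37, against -0.76, -0.74 and -1.09 in the oil animals. Under isoflurane the BDCM animals had -1.44, -2.78 and -2.33, against -1.03, -0.76 and -0.91 with oil. Every BDCM animal was below every oil animal of its experiment, and the BDCM animals were far more spread out.

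The group means of Cox8b were -2.52 ± 0.78 with BDCM and -0.86 ± 0.20 with oil under CO2-O2 (SD, n = 3 each), and -2.19 ± 0.68 with BDCM and -0.90 ± 0.14 with oil under isoflurane. Cox8b fell by 1.66 under CO2-O2 (3.16-fold lower; limma adjusted p = 0.0154) and by 1.28 under isoflurane (2.43-fold lower; adjusted p = 0.0355). Over both experiments it fell by 1.47 (95% interval -2.09 to -0.86; adjusted p = 0.0022), the 104th lowest of 12208 named genes. Its second probe, A_64_P036440, fell by 1.26 (adjusted p = 0.00241). The calls within single experiments were lost with the slide as a block, with an adjusted p of 0.184 under CO2-O2 and 0.315 under isoflurane, where the differences were -1.50 and -1.20. With the slide as a block the call over both experiments was lost too (adjusted p = 0.0799). The call under CO2-O2 was lost without oil animal 1 or 2 of that experiment (adjusted p up to 0.0511). The call under isoflurane was lost without either of those, any oil animal or BDCM animal 2 or 3 under isoflurane (adjusted p up to 0.137).

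Cox8a, the ubiquitous partner of Cox8b, had 8.01, 7.72 and 7.83 in BDCM kidneys under CO2-O2, against 7.996, 8.03 and 8.02 in oil kidneys. Under isoflurane it had 7.88, 7.88 and 7.83 with BDCM, against 7.91, 8.06 and 8.04 with oil. The BDCM animals were lower than the oil animals under isoflurane and overlapped with them under CO2-O2. The mean difference was -0.15 (95% interval -0.28 to -0.02), with a limma adjusted p of 0.0704. The change of Cox8b was lower than that of Cox8a by a difference of -1.32 (95% interval -2.00 to -0.65). An exact permutation test of that difference, two-sided and with labels exchanged within each experiment, gave p = 0.005, the smallest that its 400 arrangements allow, and 0.01 after adjustment over the 2 pairs tested.

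Cox7a2, the ubiquitous form of subunit 7a, had 6.09, 5.97 and 6.04 in BDCM kidneys under CO2-O2, against 6.11, 6.16 and 6.15 in oil kidneys. Under isoflurane it had 6.11, 6.02 and 6.07 with BDCM, against 6.23, 6.36 and 6.23 with oil. All 6 BDCM animals were below the oil animals of their experiment, by little. Cox7a2 fell by 0.16 over both experiments (95% interval -0.26 to -0.05; limma adjusted p = 0.0288), by 0.11 under CO2-O2 (adjusted p = 0.31) and by 0.21 under isoflurane (adjusted p = 0.0519), of which only the first passed. Its second probe, A_64_P071483, had a mean difference of -0.11 (adjusted p = 0.139). The call was lost with the slide as a block (adjusted p = 0.144), median scaling (0.079) and no filter on dim signals (0.0654). It was also lost without oil animal 2 or 3 or BDCM animal 2 or 3 under CO2-O2, or oil or BDCM animal 2 under isoflurane (adjusted p up to 0.0687).

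Cox4i2, the form of subunit 4 known from lung and low oxygen, had 2.15, 2.28 and 2.16 in BDCM kidneys under CO2-O2, against 2.35, 2.32 and 2.37 in oil kidneys. Under isoflurane it had 2.54, 2.47 and 2.66 with BDCM, against 2.67, 2.89 and 2.64 with oil. With this probe, A_64_P013908, the groups were apart under CO2-O2 and overlapped under isoflurane. The mean difference was -0.16 (95% interval -0.30 to -0.03), with a limma adjusted p of 0.0578. For the dimmer Cox4i2 probe, A_43_P12813, the mean difference was -0.10 (adjusted p = 0.336). Under CO2-O2 that probe differed by -0.03 and the groups overlapped.

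Cox4i1, its ubiquitous partner, had 7.69, 7.56 and 7.59 in BDCM kidneys under CO2-O2, against 7.55, 7.62 and 7.61 in oil kidneys. Under isoflurane it had 7.56, 7.53 and 7.50 with BDCM, against 7.43, 7.60 and 7.57 with oil. With this probe, A_64_P096569, the groups overlapped in both experiments, and the mean difference was 0.01 (95% interval -0.10 to 0.12; limma adjusted p = 0.905). For the dimmer Cox4i1 probe, A_43_P11856, it was 0.07 (adjusted p = 0.441), or 0.14 under CO2-O2 (adjusted p = 0.306). There its BDCM animals read 5.49, 5.188 and 5.23, all above the oil animals at 5.13, 5.186 and 5.17. With quantile normalization Cox4i1 was instead lower by a difference of -0.24 (adjusted p = 0.00258). The change of Cox4i2 was lower than that of Cox4i1 by a difference of -0.17 (95% interval -0.32 to -0.03). The exact permutation test gave p = 0.03, and 0.03 after adjustment over the 2 pairs, which was lost without oil animal 1 under CO2-O2, or animal 1 or 2 of either isoflurane group (adjusted p up to 0.06).

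**Figure D2:**
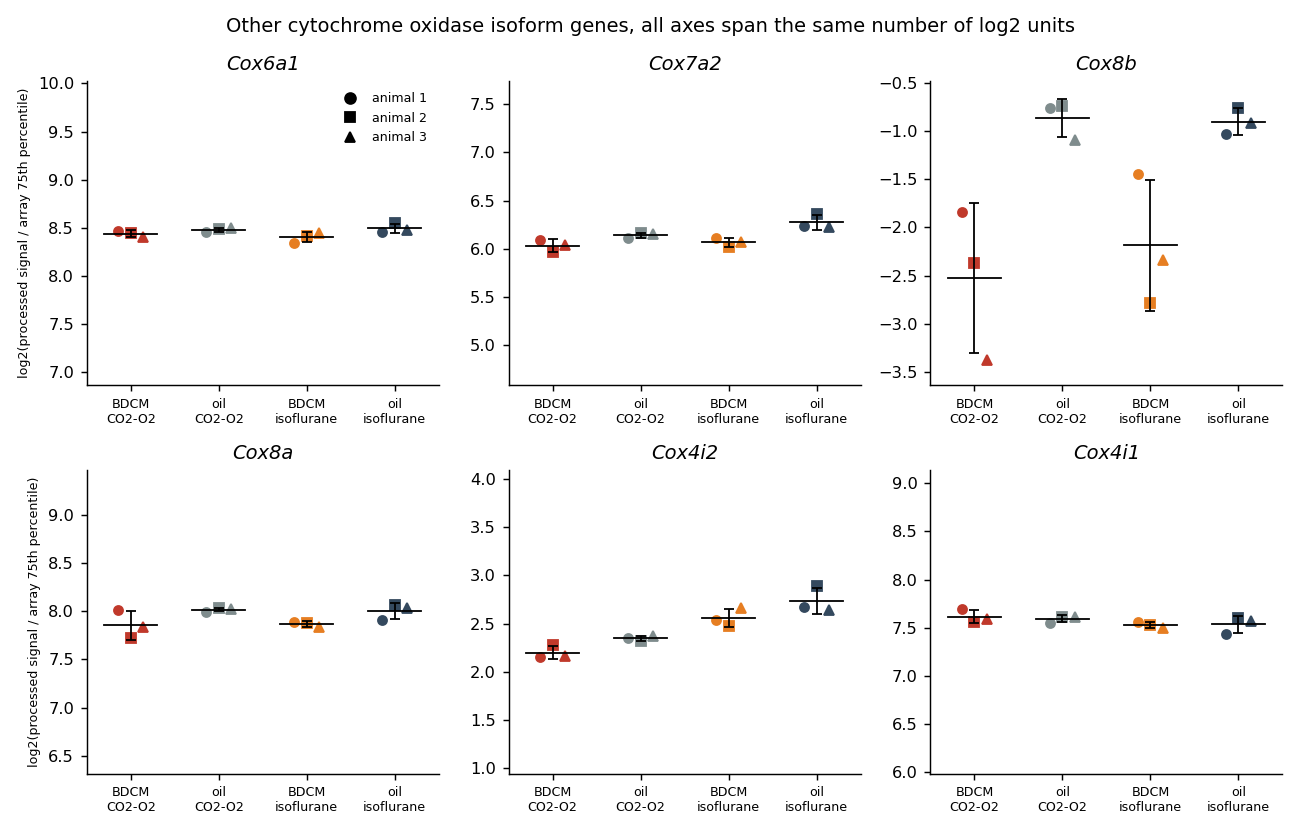
Levels of the 6 other isoform genes on the 12 arrays (vertical axes, log2 of processed signal over the array's 75th percentile; horizontal axis, the 4 groups; points, animals; bars, group mean and SD). The difference between BDCM and oil is widest for Cox8b, with means of -2.52 and -0.86 under CO2-O2 and -2.19 and -0.90 under isoflurane.

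**Figure D3:**
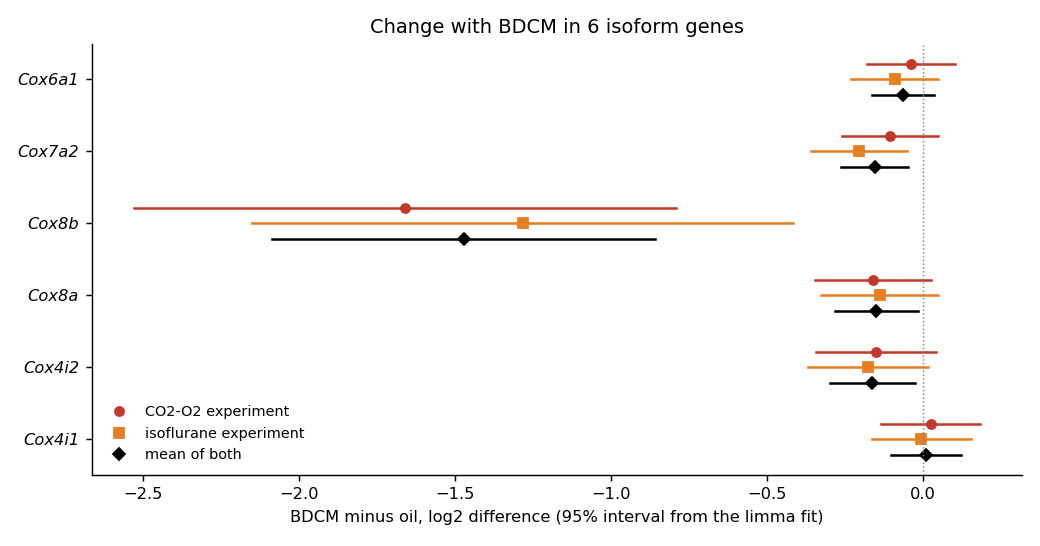
Difference between BDCM and oil in each experiment and their mean for 6 isoform genes (horizontal axis, log2 difference; points, estimates; lines, 95% intervals of the limma fit). Cox8b lies at -1.47 over both experiments, while the other 5 genes lie between -0.16 and 0.01.

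Cox6a2 and Cox8b also differed between BDCM animals in opposite order. In both experiments BDCM animal 1 had the lowest Cox6a2 level, 1.64 and 1.86, and the highest Cox8b level, -1.84 and -1.44, closest to the oil animals for both genes. The Pearson correlation of the 2 genes was -0.92 over the 12 arrays and -0.88 over deviations from the 4 group means, given as a description. The points share their arrays and their scaling, and the treated and control animals form separate clusters. The correlation of deviations rests mainly on the BDCM animals, which were more spread out than the oil animals for both genes. The order was not particular to Cox8b, since BDCM animal 1 also had the highest BDCM level of Cox8a and of Cox7a2 in both experiments. The correlations of Cox8a and Cox7a2 with Cox6a2 were -0.79 and -0.81 over the 12 arrays, and -0.58 and -0.60 over the deviations.

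**Figure D4:**
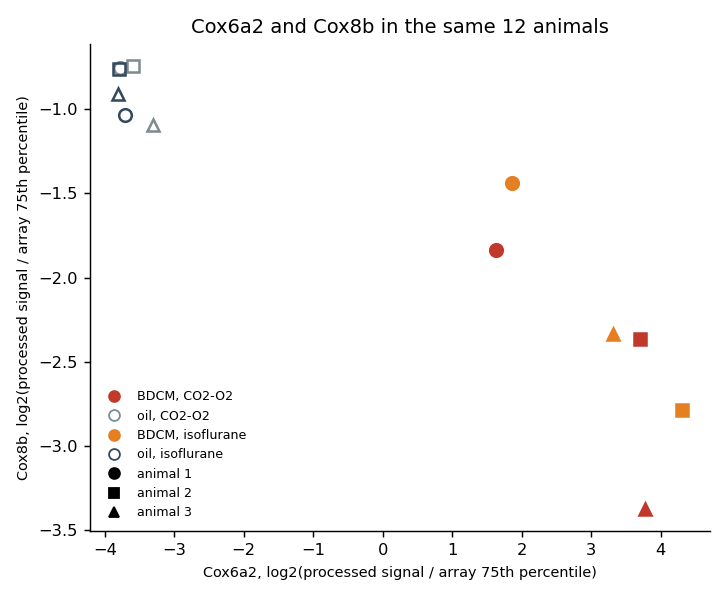
Cox8b against Cox6a2 in the 12 animals (both axes, log2 of processed signal over the array's 75th percentile; filled points, BDCM; open points, corn oil; shapes, animal numbers). The 6 BDCM animals lie to the right and below the oil animals, and both animals numbered 1 lie nearest to the oil group, at 1.64 and 1.86 for Cox6a2.

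The named genes whose pattern over the 12 arrays was most like that of Cox6a2, by Pearson correlation among 12193 genes, were Msantd3 (0.995), Tgif1 (0.990), Pycr1 (0.990), Pold1 (0.990) and Plekho1 (0.990). Tgif1 encodes a homeodomain repressor, Pycr1 an enzyme of proline synthesis and Pold1 the catalytic subunit of a replicative DNA polymerase. The treated and control animals form separate clusters for all 5, as they do for Cox6a2. Pycr1 had the closest size of difference, 6.36 over both experiments, against 1.93 for Msantd3, 1.33 for Tgif1, 1.12 for Pold1 and 1.61 for Plekho1.

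After the group means were taken away, the genes most like Cox6a2 were Slc7a11 (0.982), Nop58 (0.978), Rab19 (0.977), Nans (0.977) and Fen1 (0.977). Slc7a11 encodes the cystine and glutamate exchanger, Nop58 a protein of nucleolar RNA particles, Nans a sialic acid synthase and Fen1 a nuclease of DNA replication. Slc7a11 was higher in BDCM kidneys by 3.28, and the other 4 by 0.41 to 0.70. These are descriptions over 12 arrays. They rest mainly on the BDCM arrays, since the SD of Cox6a2 was 1.22 and 1.24 in the BDCM groups and 0.24 and 0.05 in the oil groups (CO2-O2 and isoflurane).

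The BDCM effects in the experiments were also set against each other. The difference between the BDCM effects, isoflurane minus CO2-O2, was not past the threshold for any of the 7 members in the limma fit, nor for any feature of the array (0%). At an unadjusted p below 0.05 there were 1731 such features, 5.06% of those tested. With the slide as a block 11 features were called, and with the scan day as a block 20. For Cox6a2 the difference was 0.33 with a 95% interval of -1.67 to 2.33, and for Cox8b 0.38 with -0.85 to 1.60. A difference of several fold between experiments lies within those intervals for Cox6a2.

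Between experiments, 1 member differed among oil controls, isoflurane minus CO2-O2, where 11.1% of features did, and 1 among BDCM animals, where 17.1% did. In both cases it was Cox4i2, higher by 0.39 in oil animals (limma adjusted p = 0.0199) and by 0.36 in BDCM animals (adjusted p = 0.0203). Its second probe, A_43_P12813, differed by 0.14 (adjusted p = 0.433) and 0.01 (adjusted p = 0.956). Both calls were lost with the array median as the scale (adjusted p of 0.0605 in BDCM and 0.0638 in oil animals), which put the median difference of all features between oil groups at -0.06 instead of 0.05. The call in oil animals was lost without any oil animal under CO2-O2 or oil animal 2 under isoflurane (adjusted p up to 0.0735). That in BDCM animals was lost without BDCM animal 1 or 3 under CO2-O2 or animal 3 under isoflurane (adjusted p up to 0.0612). For Cox7a2 in BDCM animals the second probe differed by -0.36 (adjusted p = 0.0145) and the brighter one by 0.03. Anaesthesia, experiment, slide and scan day cannot be told apart in these comparisons.

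Other nuclear subunits of the oxidase were measured beside the isoform pairs. Of 9 tested of 11 listed, 1 rose and 3 fell with BDCM over both experiments, and their median difference was -0.05, beside a median of -0.04 over all features tested. In that test 38.1% of all features were called, 17.7% higher and 20.4% lower, and the counts of this and the following lists are to be read against those shares. Cox7a2l, which joins the oxidase to respiratory supercomplexes, rose by 0.50 (limma adjusted p = 0.000392). Ndufa4, a subunit first assigned to complex I, fell by 0.32 (adjusted p = 0.00172). The structural subunits Cox5a and Cox7c fell by 0.22 (adjusted p = 0.0316) and by 0.20 (adjusted p = 0.0224). The call of Cox5a was lost without any 1 of 7 animals and that of Cox7c without any 1 of 3 (adjusted p up to 0.0755 and 0.059). Both calls were also lost with the slide as a block (adjusted p of 0.189 for Cox5a and 0.266 for Cox7c), the scan day as a block (0.134 and 0.103) and median scaling (0.0819 and 0.0565), and that of Cox5a with no filter (0.0614). With quantile normalization 8 of the 9 were called, all lower except Cox7a2l, and Ndufa4 fell by 0.54. With that scaling 13212 of all 34218 features were called, 6993 of them lower.

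The other 5 subunits, Cox5b, Cox6b1, Cox6b2, Cox6c and Cox7b, had differences between -0.09 and -0.01 and none passed. Cox6b2 is the testis form of subunit 6b. Cox8c, another testis form, was on the array and did not pass the filter. The 3 mitochondrial subunits had no mapped probe. Of the 2 cytochrome c genes, Cycs, the somatic form that feeds electrons to the oxidase, fell by 0.23 (limma adjusted p = 0.0192), a call lost with the slide (adjusted p = 0.182) or the scan day (0.0644) as a block. The testis form Cyct did not pass the filter.

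Assembly factors of the oxidase were called in both directions, 3 higher and 3 lower of 21 tested, with a median difference of 0.00. Cox16 fell by 0.64 (limma adjusted p = 0.000996) and Pet100 by 0.43 (adjusted p = 0.00322). Higd1a, a small protein of the inner membrane that binds the oxidase, rose by 0.42 (adjusted p = 0.00144), or by 0.28 with its probes averaged. All of these differences were under 2-fold, far below that of Cox6a2.

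Among 10 regulators of mitochondrial biogenesis, 2 rose and 3 fell, with a median difference of 0.02. The coactivator Pprc1 rose by 0.54 (limma adjusted p = 0.0132). Its relative Ppargc1b fell by 0.45 (adjusted p = 0.00135), and Tfb2m, a factor of mitochondrial transcription, fell by 0.30 (adjusted p = 0.00766). With the slide as a block the calls of Ppargc1b (adjusted p = 0.0521) and Tfb2m (0.113) were lost, and 1 of the 10, Pprc1, was called, higher by 0.81.

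Among 8 tested genes of the Cox4 switch and the response to low oxygen, 1 rose and 2 fell, with a median difference of 0.04. Lonp1, the mitochondrial protease known in human cells to remove the ubiquitous subunit 4 in low oxygen, rose by 0.95 (1.94-fold; limma adjusted p = 3.15e-05). The Myc antagonist Mxi1 fell by 0.45 (adjusted p = 0.000166), and Epas1, the alpha subunit of a hypoxia-inducible factor, fell by 0.32 (adjusted p = 0.0185). The call of Epas1 was lost with the slide (adjusted p = 0.212) or the scan day (0.0801) as a block.

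Factors that drive muscle genes were looked at beside Cox6a2. Of 5 tested of 8 listed, 0 rose and 1 fell in the limma fit, and Myod1 and Myf6 were not well above background on any array. Myog, which encodes myogenin, fell by 0.73 (adjusted p = 0.00671), but with its probes averaged the difference was -0.30 and was not called (adjusted p = 0.133). Mef2a and Mef2d, factors of the MEF2 family, had differences of -0.18 and 0.08, and neither passed.

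Other enzymes of energy metabolism with a muscle form were tested for 14 of 15 genes, of which 1 rose and 1 fell, with a median difference of -0.03. Cpt1b, the muscle form of carnitine palmitoyltransferase, rose by 0.47 (limma adjusted p = 0.0255), a call lost without any 1 of 5 animals (adjusted p up to 0.0595), with the slide as a block (0.141) or with its probes averaged (0.32; adjusted p = 0.183). Ldhb, the heart form of lactate dehydrogenase, fell by 0.27 (adjusted p = 0.0162), a call lost with the slide (adjusted p = 0.187) or the scan day (0.0955) as a block. Ckm, the muscle creatine kinase, had a difference of -0.34 (adjusted p = 0.149), and Mb, which encodes myoglobin, had 0.02 (adjusted p = 0.878). Over all 7 lists, 22 of 68 tested genes passed the threshold, or 32.4% (8 higher and 14 lower), where 38.1% of all features did.

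**Figure D5:**
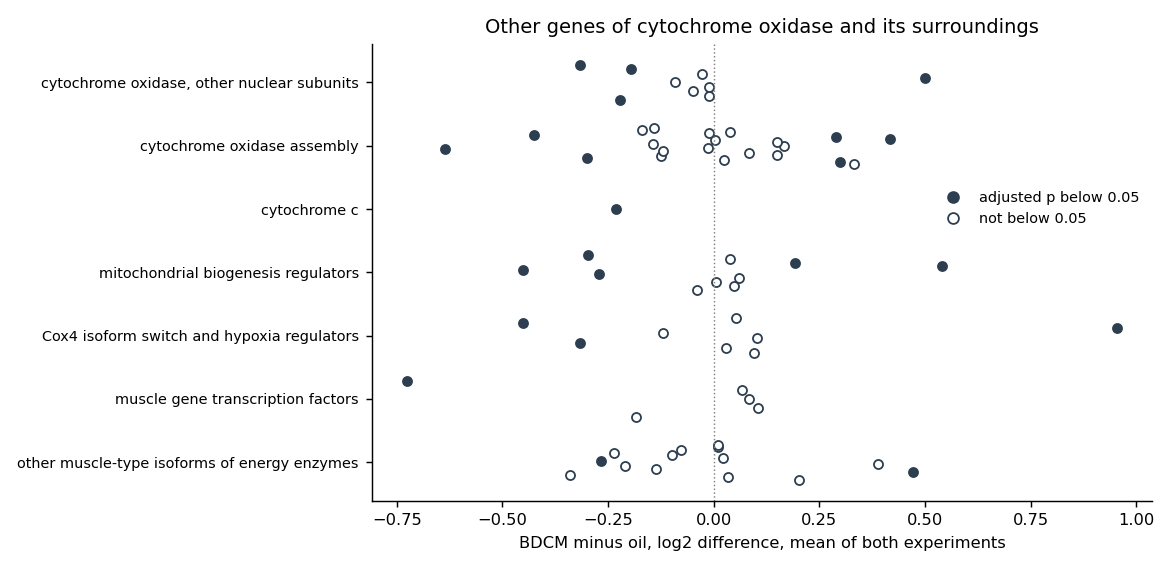
Mean difference between BDCM and oil for each tested gene of 7 lists of genes around cytochrome oxidase (horizontal axis, log2 difference; filled points, limma adjusted p below 0.05). All lie between -0.73, for Myog, and 0.95, for Lonp1, against 6.77 for Cox6a2.

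Striated muscle, where Cox6a2 is mostly found, was followed by its marker genes. Of 14 tested of 20 listed, 0 rose and 4 fell in the limma fit, and Myl1 and Myh1 were not well above background on any array. The summed level of the 17 listed genes on the array, in multiples of each array's 75th percentile, was 5.19 to 5.96 with BDCM and 6.86 to 7.66 with oil under CO2-O2, and 4.49 to 6.08 with BDCM and 5.90 to 7.75 with oil under isoflurane.

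Markers of adipocytes, another cell type that could be on the kidney surface, had 1 gene higher and 1 lower of 7 tested of 12 listed, with Lep and Elovl3 not well above background on any array. The summed level of the 9 listed genes on the array was 4.17 to 5.39 with BDCM and 2.70 to 3.43 with oil under CO2-O2, and 3.78 to 5.81 with BDCM and 2.34 to 3.41 with oil under isoflurane. The gene that rose was Cidea, by 1.73. The other 5 tested were not called, and the median difference of the 7 was -0.09 over both experiments, so the list did not rise as a set. The summed level was higher with BDCM in both experiments, as Cox6a2 was. This was not particular to adipocytes, since the sums of smooth muscle markers, given below, were also higher. The median sum of hepatocyte markers was higher too, at 27.8 against 15.6 under CO2-O2 and 16.0 against 9.44 under isoflurane. The hepatocyte ranges overlapped under CO2-O2. Sums of the other lists were lower with BDCM or overlapped. The part of these sums in the result was not tested.

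Smooth muscle markers had 1 gene higher and 3 lower of 7 tested. The summed level of the 8 on the array was higher with BDCM, at 27.6 to 31.4 against 16.7 to 18.0 under CO2-O2 and 36.4 to 41.6 against 21.2 to 23.3 under isoflurane. Notch3 alone was the gene that rose, by 1.02, while Myh11, Acta2 and Rgs5 fell. The median difference of the 7 was -0.16 over both experiments, so this list did not rise as a set. A sum of levels weighs the brightest genes most, and the share of each gene in it is not given here. All 8 proximal tubule markers fell, with summed levels of 839 to 1008 with BDCM and 994 to 1407 with oil under CO2-O2, and 792 to 1095 with BDCM and 1456 to 1604 with oil under isoflurane. In bulk tissue, fewer cells of a type and less RNA per cell cannot be told apart. Of the remaining lists, hepatocyte markers had 3 higher and 1 lower of 10 tested, adrenal markers 1 higher of 3, distal nephron markers 1 lower of 6, podocyte and endothelial markers 3 lower of 7, and leukocyte markers 0 of 5. Their parts in the Cox6a2 and Cox8b results were not tested.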

How the data were processed

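RNA of 12 renal cortex samples was measured on one-colour arrays, 1 animal each. Spot intensity in the deposited scanner files came from Agilent Feature Extraction, version 10.7.1.1 per the file headers (10.7 in the submitters' notes), and was background-subtracted and detrended within each array. The value table that was deposited holds a ratio, each processed signal over the 75th percentile of an array; its 6 CO2-O2 columns equal the signal of another animal of the same group, so animals are numbered by scanner file and the table was only an alternative. Probe annotation refers to rn4, per the file headers.

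The log2 level of a probe is its processed signal over the 75th percentile of that array, with 95 outlier values, controls and spike-ins removed. RefSeq accessions were turned into symbols with a RefSeq gene table of GRCr8 (27460 probes with 1 symbol, 34197 with none), and a gene was read from its brightest probe on average. A feature was kept where some group had it well above background on each of its 3 arrays, which left 34218 of 49397. The fit used limma (version 3.58.1, R 4.3.3, data.table version 1.17.8), 1 mean per group, with Benjamini-Hochberg adjustment over all features and a threshold of 0.05. The steps were tested on simulated data. Exact permutation tests used Python 3.11.15 (scipy 1.17.1, pandas 2.3.3), with figures from matplotlib 3.10.9. The planned test of Cox7a1 against Cox7a2 was not run, since no probe mapped to Cox7a1.

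Members, gene lists and tests were chosen with earlier results of these data known. Genes named were every member, the other oxidase subunits and cytochrome c, the 3 genes of each further list past the threshold with the largest mean BDCM difference, and the 5 most like Cox6a2 by each correlation. Mef2a, Mef2d, Ckm, Mb, Cidea, Notch3, Myh11, Acta2 and Rgs5 fall outside that rule and were named after their values were seen. Alternatives covered scaling, background correction, filter, probe choice, source of values, model, threshold and each animal left out. Promoter sequences are RefSeq's on GRCr8, found for 6 of the 8 genes.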

Additional observations from a re-analysis of the deposited data

How the results depend on the processing

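The rise of Cox6a2 was 6.48 to 7.12 with each animal left out (6.23 to 7.30 under CO2-O2, 6.36 to 7.58 under isoflurane). It was 4.08 (3.95 and 4.21) with the probes averaged. Its direction was the same in every alternative run, which is no test of the rise. Cox6a2 was chosen for this difference, and its treated and control levels lay too far apart for leaving out an animal or rescaling to reverse it. The values describe the size of the rise only. The fall of Cox8b over both experiments kept its direction throughout and its call in 27 of 28 alternatives, the exception being the slide as a fixed block. The causes of the changes below were not tested.

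Of the other 6 members, 2 were called over both experiments. This count was 5 with quantile normalization, 4 with a trend in the variance, 1 with median scaling, no filter, the replicate block, a threshold of 0.01 or a minimum of 2-fold, 0 with the slide as a fixed block, and 1 to 3 with each animal left out. Of all 34218 features, 13212 were called with quantile normalization, 13262 with a trend, 12548 with median scaling and 11222 with the replicate block. Without the filter it was 11264 of 49397. Under CO2-O2 (1 member called) the count was 3 with quantile normalization, 2 with normexp background, 0 with either block (slide, scan day) or the threshold of 0.01, and 0 to 1 with animals left out. Of all features, 6946 of 34218 were called there with quantile normalization and 6744 of 34218 with normexp. With the slide block it was 3167 of 34214 and with the scan day block 4104 of 34214. Under isoflurane (1 member called) the count was 4 with quantile normalization, 2 with normexp, the filter on all 12 arrays or a trend, 0 with no filter, slide, scan day or 0.01, and 0 to 1 with animals left out. Of all 34218 features, 9445 were called there with quantile normalization, 9180 with normexp, 9349 with a trend and 7978 with scan day. It was 8926 of 30664 with the filter on all 12 arrays, 6815 of 49397 with no filter and 2715 of 34217 with slide. The count between experiments (1 in BDCM and 1 in oil animals) was 0 in both with median scaling, averaged probes, 0.01 or 2-fold, and 0 to 1 with animals left out. In BDCM animals it was 2 with quantile normalization and 0 with the 2 groups fitted alone. Of all 34218 features, 5287 were called between BDCM groups and 4159 between oil groups with median scaling. With averaged probes it was 5463 and 3435 of 34238. Between BDCM groups it was 5062 with quantile normalization and 973 with these groups alone, against 5847 in the main fit. With animals left out it was 3620 of 34333 to 5237 of 34268 between BDCM groups. Between oil groups it was then 1592 of 34678 to 4194 of 34307. The 22 listed genes called became 13 with the slide as a fixed block, 14 at 0.01 and 0 at 2-fold. Features called over both experiments went down to 8327 of 34213 with that block, against 13037. The share of all features at 0.01 or at 2-fold is not given here, so no count of members or listed genes at those settings can be set against it. Between oil groups 67.9% of calls were higher, against 37.8% with median scaling and 54.3% with quantile normalization; between BDCM groups the shares were 69.2%, 43.6% and 56.0%.

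Animal numbers did not pair the samples: deviations of same-numbered BDCM and oil animals correlated between -0.02 and 0.05. With the replicate block the pair difference of Cox8b and Cox8a stayed at -1.32 with an adjusted p of 0.0625 in an exact test. That of Cox4i2 and Cox4i1 stayed at -0.17 with 0.125. The 6 animal pairs allow few arrangements, and the adjusted p of 1 pair difference depends on that of the other. The 0.0625 of Cox8b and Cox8a is the smallest they allow unless the other pair reaches its minimum too. Both pair differences of the main exact test failed a threshold of 0.01. Cox8b and Cox8a could have passed it only if both pairs had the smallest p of the 400 arrangements, 0.005. The calls of Cox7a2, Cox5a, Cox7c, Cycs and Epas1 were lost with that block too (adjusted p of 0.104, 0.0823, 0.0789, 0.0546 and 0.0701 by limma). With animals left out the second pair difference was -0.21 to -0.14. The scan day block was chosen after seeing the data.

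With quantile normalization Cycs fell by 0.49 and Ldhb by 0.50. Small differences that were not called, or were called under quantile normalization alone, changed sign. With quantile normalization Cox4i1 was -0.24 over both experiments and -0.18 under CO2-O2; isoflurane minus CO2-O2 was -0.19 for Cox6a1 in oil, and -0.10 for Cox7a2 and -0.16 for Cox8a in BDCM animals; the Cox8a effects differed by -0.029. With median scaling Cox4i1 under isoflurane was 0.037, Cox5b 0.023, Cox6b2 0.024 and Cox7b 0.0060, and the experiment differences were -0.093 for Cox6a1 in oil, and -0.056 for Cox7a2 and -0.080 for Cox8a in BDCM animals. With normexp Cox5b was 0.046, Cox6a1 between oil groups -0.033 and between effects 0.019. With averaged probes Cox5b was 0.0052, Cox6b2 0.0044, Cox7a2 between experiments -0.16 in BDCM and -0.043 in oil animals, and Cox4i1 0.076 in oil. With array weights Cox6b2 was 0.048, Cox6a2 and Cox8a between BDCM groups -0.11 and -0.0090, and Cox4i2 between effects 0.021. With the slide as a fixed block Cox4i1 was -0.028 over both experiments and -0.029 under CO2-O2, and effects differed by -0.37 for Cox6a2, 0.0075 for Cox7a2 and 0.00286 for Cox4i1. With scan day Cox4i1 was -0.00962 over both, -0.029 under CO2-O2 and 0.0101 under isoflurane, and effects differed by -0.41 for Cox6a2 and 0.039 for Cox4i1.

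With each animal left out, BDCM minus oil ranged from -0.016 to 0.025 for Cox4i1 (-0.014 to 0.051 under CO2-O2, -0.057 to 0.026 under isoflurane), -0.037 to 0.012 for Cox5b, -0.070 to 0.082 for Cox6b2 and -0.056 to 0.0061 for Cox7b. Effects differed by -0.37 to 0.98 for Cox6a2, -0.047 to 0.72 for Cox8b, -0.047 to 0.10 for Cox8a, -0.079 to 0.050 for Cox4i2 and -0.081 to 0.0073 for Cox4i1. BDCM groups differed by -0.58 to 0.77 for Cox6a2, -0.085 to 0.68 for Cox8b and -0.058 to 0.090 for Cox8a, and oil groups by -0.0095 to 0.033 for Cox6a1, -0.15 to 0.028 for Cox8b and -0.040 to 0.035 for Cox8a.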
